A study of Mus musculus with 7 samples.

Results

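Vegfa and Epas1, a vascular growth factor gene and a gene of the cell's response to low oxygen, were followed in the chromatin of adipose tissue macrophages from mice that were obese, formerly obese or never obese. All regions with the symbol Vegfa or Epas1 in the 7 deposited tables were taken. These are 2 of 5898 regions, 1 for each gene. The assay was ATAC-seq, where a transposase cuts and tags chromatin that is open, on nuclei of FACS-sorted macrophages. All mice were adult C57Bl/6J males. The RD-RD group (n = 2 libraries) ate a regular diet (10% lipid) for 20 weeks, and the HFD group (n = 3) a high-fat diet (60% lipid) for 11 weeks. The HFD-RD group (n = 2) ate the high-fat diet for 11 weeks and then, for 9 weeks, the regular diet, on which it lost weight. No genotype differs between the groups. The labels do not say how many animals or sorts stand behind a library, so the p-values measure the spread between libraries, which may be technical.

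Groups follow the library titles and diet labels. The source name of every library gives another diet than its title, and which of these labels is right cannot be told apart from the values, because the regions were selected for differences between the titled groups. The tables hold selected regions only. None was assigned to the 9 macrophage marker genes listed for this check, so the labelled cell type could not be checked against its markers. Depth within the 5898 regions ran from 889422 to 2807495 reads per library. These and all read numbers below were inferred from the step between values in each library. They are estimates and no count table, a second check on low values did not accept them as recovered reads, and the Poisson intervals rest on this inference.

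Vegfa encodes vascular endothelial growth factor A, which binds receptor tyrosine kinases on endothelial cells and makes vessels grow. Epas1 encodes HIF-2 alpha, a transcription factor subunit that prolyl hydroxylases mark for destruction when oxygen is plentiful. In low oxygen it pairs with an ARNT protein and binds short DNA motifs, and Vegfa is a classic target of the hypoxia-inducible factors. Macrophages gather in poorly oxygenated parts of expanding fat and are one source of VEGF there.

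The Vegfa region spans 803 bp on chromosome 17 from 46069988 to 46070790 (GRCm38, counted from 1). The deposited annotation places it upstream of Vegfa, 37619 bp from the gene start, with Vegfa on the minus strand. In the RefSeq annotation (GRCm38.p6) it lies outside annotated genes. The nearest annotated gene is the pseudogene Gm19969, 23.5 kb away on the side away from Vegfa. Beyond it is the start of Mrps18a, a mitochondrial ribosome gene on the opposite strand, at 40.2 kb, against 37.6 kb to Vegfa. Gm19969 and Mrps18a had 0 deposited regions.

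The Epas1 region spans 783 bp on chromosome 17 from 86677025 to 86677807. It is annotated upstream of Epas1, 76675 bp before the gene start on the plus strand. In RefSeq it falls inside Gm52297, a long non-coding RNA gene whose start is 7.42 kb away. The pseudogene Gm18832 lies 6.95 kb from the region. The body of Prkce, a protein kinase C gene, ends 19.1 kb from the region, closer than the start of Epas1. None of Gm52297, Gm18832 and Prkce had a deposited region of its own. The symbols below name the deposited assignment, and which gene either region acts on was not tested.

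RefSeq promoter windows were at hand for Vegfa and not for Epas1. The 250 bases before 2 annotated Vegfa starts are shown. The distal start is the one from which the deposited distance was counted, and the internal start, shown beside it as another annotated start of the gene, is not. Both are on the minus strand of GRCm38.p6, at chr17:46032378-46032627 (distal start) and chr17:46025164-46025413 (internal start). Capitals mark matches on either strand to the hypoxia-inducible factor core (ACGTG or GCGTG) or the GC box (GGGCGG).
Vegfa distal start: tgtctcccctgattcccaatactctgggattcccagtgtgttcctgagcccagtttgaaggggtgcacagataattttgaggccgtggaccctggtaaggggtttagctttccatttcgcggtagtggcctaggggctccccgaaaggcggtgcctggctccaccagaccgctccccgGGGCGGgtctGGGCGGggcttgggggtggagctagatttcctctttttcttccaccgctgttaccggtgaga
Vegfa internal start: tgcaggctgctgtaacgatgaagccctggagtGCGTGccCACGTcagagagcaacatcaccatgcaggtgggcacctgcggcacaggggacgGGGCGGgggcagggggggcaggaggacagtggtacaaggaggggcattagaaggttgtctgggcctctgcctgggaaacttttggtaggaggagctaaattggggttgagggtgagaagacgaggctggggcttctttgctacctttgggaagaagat

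The distal window held 2 GC boxes, 72 and 62 bases before the start, and 0 matches to either hypoxia-inducible factor core. Bases further upstream were not searched, so the 0 holds for this window only. The internal window held ACGTG once (read on the other strand as CACGT, 211 bases before the start), GCGTG once (218 bases before) and 1 GC box. This window lies inside the Vegfa gene body as deposited (46016993 to 46032369). Whether its matches fall in exon sequence was not examined, so they are not read as a trait of a Vegfa promoter. ACGTG is also part of the E-box CACGTG. Among all 32851 promoter windows of this length, 16.6% held ACGTG, 28.2% GCGTG and 32.7% GGGCGG, so these letters are common. Neither Vegfa window held the AP-1 motif TGANTCA (6.75% of windows) or the PU.1 motif GAGGAAG (10.6%). The number of deposited regions that overlapped either window was 0, so the accessibility change assigned to Vegfa lies away from these gene starts.

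The Vegfa region was most open after weight loss. Its normalized counts (reads in the region divided by a size factor per library) were 93.4 and 131 in RD-RD, 233, 205 and 182 in HFD, and 465 and 383 in HFD-RD. The groups did not overlap and stood in the order RD-RD, HFD, HFD-RD. All deposited regions were selected for differences between groups. How many others separate in this way was not counted, so the separation alone does not set the Vegfa region apart. Group means were 112 ± 26.6 (SD, n = 2), 207 ± 25.4 (SD, n = 3) and 424 ± 57.9 (SD, n = 2). As inferred from the steps, these values rest on 75 and 91 reads in RD-RD, 516, 249 and 212 in HFD, and 255 and 414 in HFD-RD.

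The Epas1 region was more open in both groups that had eaten the high-fat diet. Its normalized counts were 62.3 and 28.8 in RD-RD, 143, 156 and 209 in HFD, and 199 and 173 in HFD-RD. Both RD-RD libraries lay below every other library, while the values of HFD-RD fell within the range of HFD. For this course, too, the number of other regions that share it was not counted. Means were 45.5 ± 23.7 (SD, n = 2) in RD-RD, 169 ± 34.8 (SD, n = 3) in HFD and 186 ± 18.2 (SD, n = 2) in HFD-RD. Reads were few in RD-RD, 50 and 20, against 317, 190 and 243 in HFD and 109 and 187 in HFD-RD. The exact 95% Poisson interval, which covers counting error only, ran from 17.6 to 44.5 normalized counts for RD-RD replicate 2 and from 46.2 to 82.1 for replicate 1, so these libraries differed by more than counting error.

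**Figure D1:**
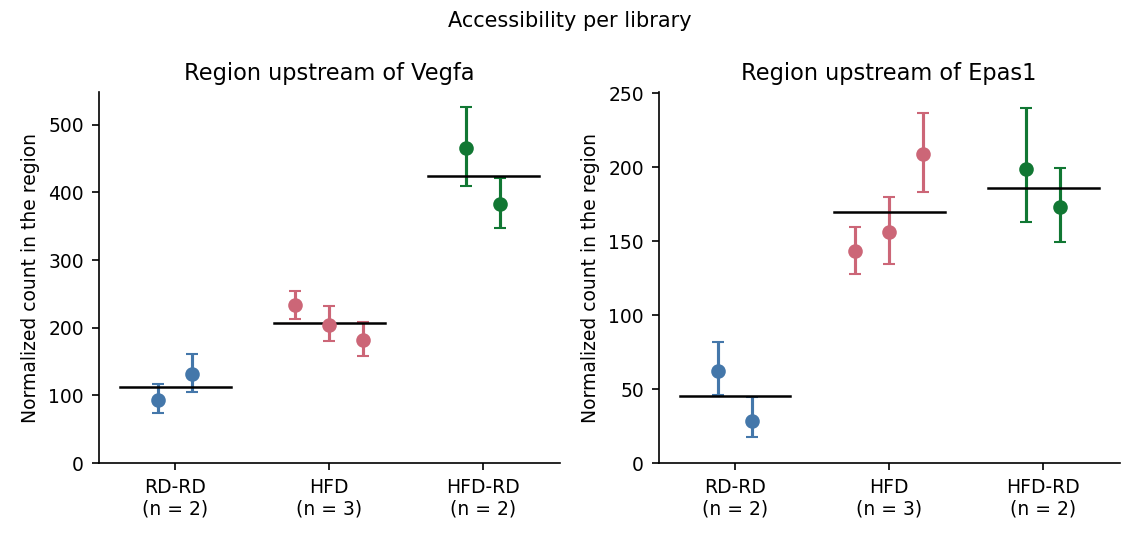
Normalized count of the Vegfa region (left) and the Epas1 region (right) in each of the 7 libraries, by diet group. Points are libraries, bars exact 95% Poisson intervals for counting error, and black lines group means. The Vegfa region steps up from RD-RD (mean 112) through HFD (207) to HFD-RD (424), whereas the Epas1 region is low in RD-RD (45.5) and overlaps between HFD (169) and HFD-RD (186).

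Per kb of region, the Vegfa region held 140 ± 33.1 normalized counts in RD-RD, 257 ± 31.7 in HFD and 528 ± 72.0 in HFD-RD (SD, n = 2, 3 and 2), and the Epas1 region 58.2 ± 30.2, 216 ± 44.4 and 237 ± 23.2. Averaged over the 7 libraries the Vegfa region was the more open of the pair, and 11.6% of deposited regions had a higher level per kb, against 43.4% for the Epas1 region. The SD within groups, pooled over the 3 groups, was 0.44 on the log2 scale at Epas1, larger than in all but 6.51% of regions. At Vegfa it was 0.23, close to the median of 0.23. At Epas1 the RD-RD libraries stood furthest apart, at log2 levels of 5.98 and 4.90 that rest on 50 and 20 reads. The HFD-RD libraries were closer to each other at Epas1 (7.64 and 7.44) than at Vegfa (8.86 and 8.59).

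In HFD-RD against RD-RD, which asks what remains different after weight loss, both regions were more open in HFD-RD. The Vegfa region rose by 1.92 ± 0.234 (SE) on the log2 scale, about 3.79-fold (limma, Benjamini–Hochberg adjusted p = 9.61e-05). The Epas1 region rose by 2.10 ± 0.323 (SE), about 4.30-fold (limma, adjusted p = 0.000235). Both calls are read against 64.8% of all deposited regions called higher and 32.4% called lower in this comparison, so the calls as such do not set the pair apart. Their sizes were in the upper tail, with a larger log2 change at 147 regions (2.49%) for Vegfa and 76 regions (1.29%) for Epas1. The median over all regions was 1.03, so the Vegfa region stood 0.89 and the Epas1 region 1.07 above it. Every deposited region had an authors' log2 fold change of at least 1.00 in size, in the comparison its table gives. The median and shares are therefore not those of unselected regions. When the libraries were rescaled by median-of-ratios factors over the deposited regions, with which that median was 0.217, the changes were 1.11 and 1.30 and both calls held.

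In HFD against RD-RD both regions rose. The groups differ in diet and in study time, 11 against 20 weeks, and these cannot be told apart. The Epas1 region rose by 1.95 ± 0.295 (SE) on the log2 scale (limma, adjusted p = 0.000286), about 3.87-fold. At the Vegfa region the rise was 0.89 ± 0.214 (SE), about 1.85-fold (limma, adjusted p = 0.00272). In this comparison 59.2% of regions were called higher and 29% lower. A larger log2 change was found at 109 regions (1.85%) for Epas1 but at 2571 regions (43.6%) for Vegfa, whose change was 0.13 above the median of 0.75. Under the median-of-ratios rescaling the Vegfa change was 0.19 and did not pass (adjusted p = 0.442), and the Epas1 change was 1.26 and passed. How far the 2 changes differed depended on the RD-RD libraries. Without RD-RD replicate 2 they were 1.41 at Epas1 and 1.13 at Vegfa, and without RD-RD replicate 1 they were 2.50 and 0.65. The direct comparison of the 2 regions in these groups, given below, had an exact permutation p of 0.4.

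In HFD-RD against HFD, after weight loss against ongoing high-fat feeding, the Vegfa region opened further. Study time again differs, 20 against 11 weeks, and cannot be told apart from the diet change. It rose by 1.03 ± 0.214 (SE) on the log2 scale, about 2.05-fold (limma, adjusted p = 0.0102), where 10.2% of regions were called higher and 12.8% lower, and 163 regions (2.76%) had a larger change. All HFD-RD libraries exceeded all HFD libraries, by at least 150.2 normalized counts. How many other regions separate these groups was not counted. Without HFD-RD replicate 1, the library with the fewest reads and the highest Vegfa value, the change was 0.89 and did not pass (adjusted p = 0.0862). With the replicate number as a block it was 0.95 (adjusted p = 0.0554). The Epas1 region had a log2 change of 0.15 ± 0.295 (SE), with a 95% interval from -0.50 to 0.80, and did not pass (limma, adjusted p = 0.716). This interval does not show that the Epas1 region was alike in both groups.

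**Figure D2:**
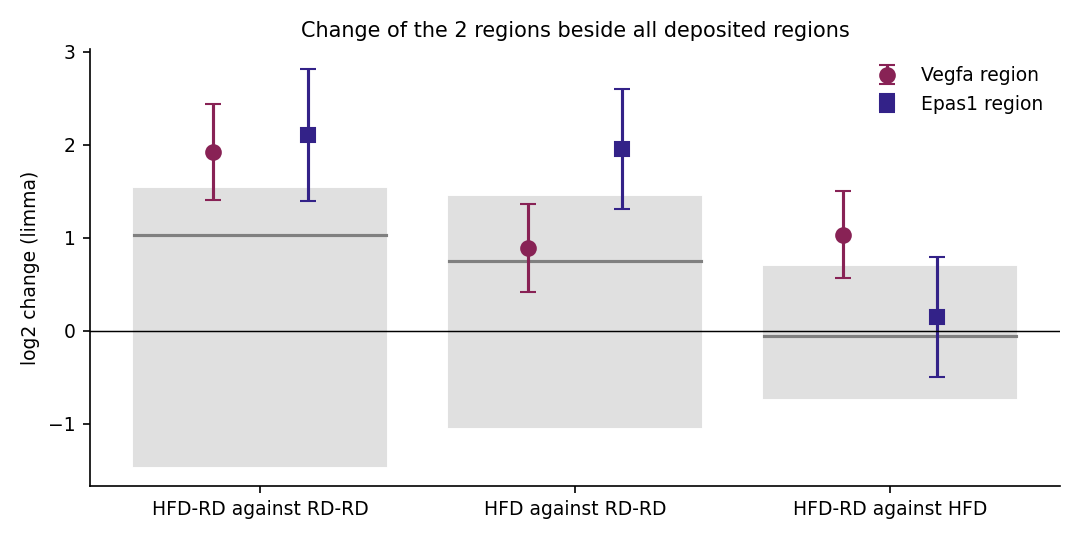
log2 change of the Vegfa region (circles) and the Epas1 region (squares) in the 3 comparisons, with 95% intervals from limma. Grey boxes span the 10th to 90th percentile of all 5898 deposited regions and grey lines their medians (1.03, 0.75 and -0.05). The values of both regions lie above the box in HFD-RD against RD-RD, that of Epas1 alone in HFD against RD-RD, and that of Vegfa alone in HFD-RD against HFD.

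The calls of the Vegfa and Epas1 regions were recomputed under 17 other settings. Those in HFD-RD against RD-RD held under all 17, with log2 changes of 1.11 to 2.16 for Vegfa and 1.30 to 2.65 for Epas1. In HFD against RD-RD the Epas1 call held under all 17, at 1.26 to 2.50, and the Vegfa call under 16. Not every setting could move a value. Dropping the minimum altered nothing, as it had removed no region. Leaving out a library of the group not compared left the log2 change as it was.

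**Figure D3:**
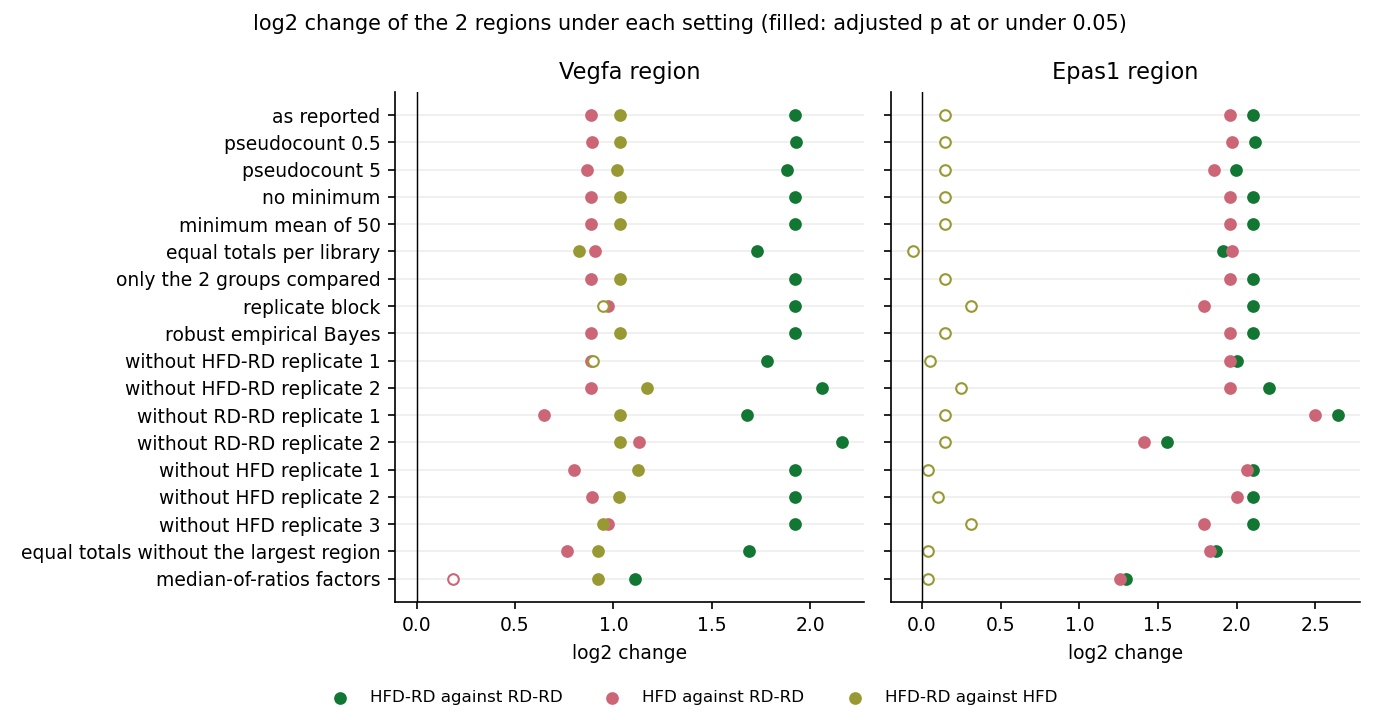
log2 change of the Vegfa region (left) and the Epas1 region (right) as reported (top line) and under each of 17 other settings, coloured by comparison. Filled points passed limma's test and open points did not. The Vegfa value in HFD-RD against HFD is open with the replicate block (0.95) and without HFD-RD replicate 1 (0.89), and in HFD against RD-RD with median-of-ratios factors (0.19).

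The pair was also set against each other within each library. The log2 level of the Vegfa region minus that of the Epas1 region was 0.58 and 2.15 in RD-RD, 0.70, 0.39 and -0.20 in HFD, and 1.22 and 1.14 in HFD-RD. Values of HFD-RD lay above all 3 of HFD, with a difference between group means of 0.89. The exact two-sided permutation test over libraries gave p = 0.2, which is the smallest p that 2 against 3 libraries allow, so no smaller p could be reached. HFD against RD-RD gave -1.07 (exact permutation p = 0.4) and HFD-RD against RD-RD gave -0.18 (exact permutation p = 1), with smallest possible values of 0.2 and 0.333.

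The sequence of calls at the Vegfa region, higher in all 3 comparisons, was shared by 243 regions (4.12%). That of the Epas1 region, higher in both comparisons with RD-RD and not passing in HFD-RD against HFD, was shared by 3124 regions (53%). The comparisons share libraries, so these counts describe the tables.

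The authors' deposited table that holds the Vegfa region gives a log2 fold change of 1.92 with a standard error of 0.214 and an adjusted p-value of 6.35e-17, for a comparison read from the values as HFD-RD against RD-RD. For the Epas1 region the authors' deposited table gives 1.87 with a standard error of 0.285 and an adjusted p-value of 2.17e-09, read as HFD against RD-RD. Each table gives 1 comparison only.

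Other regions near Vegfa were examined for whether they followed the same course. Within 500 kb of the Vegfa region there were 11 deposited regions assigned to 5 genes, the nearest 215 kb away. Against RD-RD, 10 of them rose in HFD-RD and 1 fell (64.8% and 32.4% over all regions), with log2 changes from -1.62 to 1.57, all below that of the Vegfa region. The 6 regions at F630040K05Rik changed by 1.00 to 1.35, and the region near Slc22a7, an organic anion transporter gene on the far side of the Vegfa region, fell with -1.62 ± 0.336 (SE). In HFD against RD-RD again 10 rose and 1 fell, where 59.2% of all regions were higher and 29% lower, and here the F630040K05Rik regions, at 1.21 to 1.54, had larger changes than the Vegfa region at 0.89.

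In HFD-RD against HFD, 0 of the 11 neighbours passed, where 10.2% of all regions were higher and 12.8% lower (limma, lowest adjusted p = 0.082 at Slc22a7), with log2 changes from -0.79 to 0.57 against 1.03 at the Vegfa region. With so few called over all regions, this count does not set the Vegfa region apart, and its own call was lost with the replicate block and without HFD-RD replicate 1. Around the Epas1 region there was a single deposited neighbour within 500 kb, upstream of 2010106C02Rik at a distance of 364 kb. Its log2 change was -1.31 ± 0.283 (SE) for HFD-RD and -0.75 ± 0.259 (SE) for HFD, each against RD-RD and each past the threshold, opposite to the Epas1 region.

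**Figure D4:**
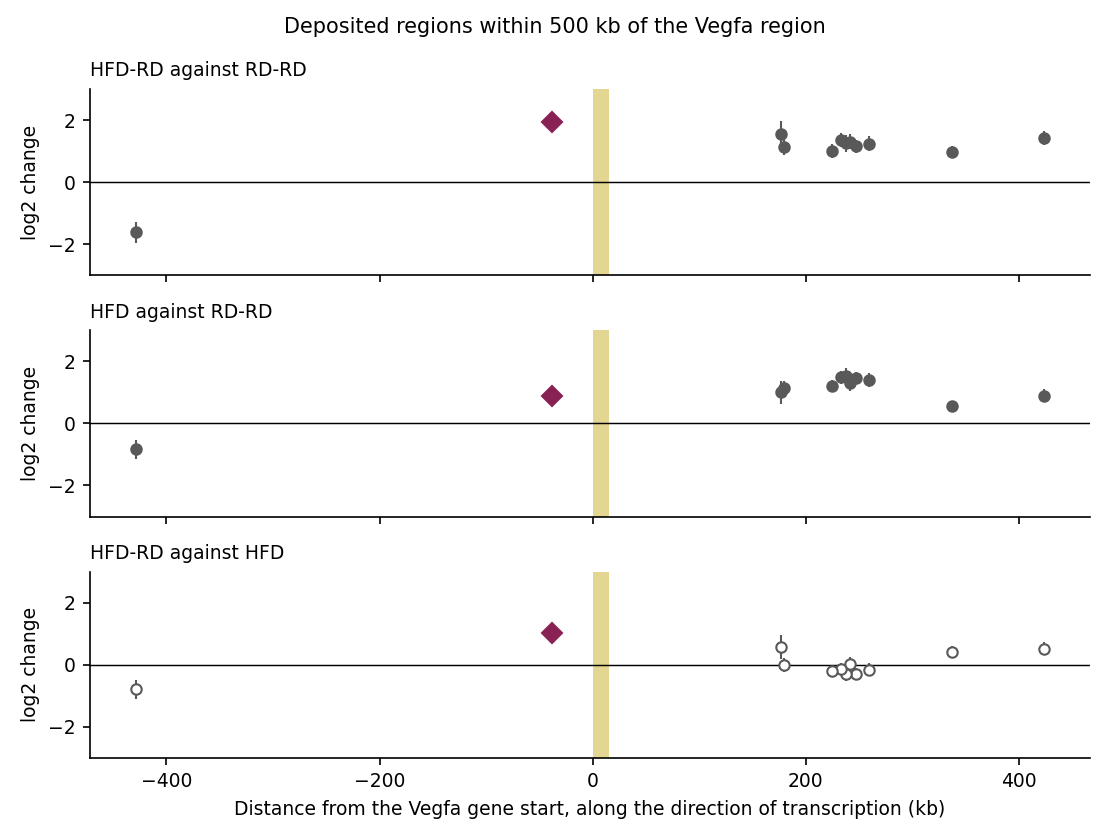
log2 change (± SE) of the deposited regions within 500 kb of the Vegfa region (diamond), by distance from the Vegfa gene start along the direction of transcription. The yellow band is the Vegfa gene, filled circles passed limma's test and open circles did not. In the lowest panel, HFD-RD against HFD, the diamond at 1.03 is the only filled symbol, and its call was lost with the replicate block and without HFD-RD replicate 1.

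Among the other VEGF ligands, only Vegfc, the ligand of lymphatic vessel growth, had a deposited region, and it moved the opposite way to Vegfa. It lies 205317 bp upstream of its gene and averaged 148 normalized counts in RD-RD, 56.1 in HFD and 38.1 in HFD-RD. Its log2 change was -1.90 ± 0.264 (SE) in HFD-RD against RD-RD and -1.36 ± 0.241 (SE) in HFD against RD-RD, and both passed. In HFD-RD against HFD it was -0.54 ± 0.241 (SE) and did not pass. Of the 6 names listed for ligands, including the older symbol of Vegfd, 2 had regions.

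VEGF receptor and co-receptor genes had 7 regions at 3 of 5 genes, 4 higher and 3 lower in HFD-RD against RD-RD, with a median log2 change of 0.73 beside 1.03 for all regions, of which 64.8% were higher and 32.4% lower. Kdr, which encodes the main signalling receptor VEGFR2, had regions moving both ways. The one nearest its start, 11761 bp upstream, rose by 1.38 ± 0.208 (SE), and the 1 at 152203 bp downstream of the start by 1.08 ± 0.240 (SE). The 2 at 105899 and 101385 bp downstream of the start fell, with -1.56 ± 0.266 (SE) and -1.37 ± 0.243 (SE). Flt1, which encodes VEGFR1, rose by 1.08 ± 0.256 (SE) and the co-receptor gene Nrp2 had 1 region at -1.29 ± 0.397 (SE) and 1 at 0.73 ± 0.242 (SE). In HFD against RD-RD 4 rose, 2 fell and 1 did not pass, beside 59.2% higher and 29% lower over all regions. Between HFD-RD and HFD 6 of the 7 did not pass, and 1 at Kdr fell with -0.83 ± 0.243 (SE), where 12.8% of all regions were lower. With the replicate block and without HFD-RD replicate 1, 0 of the 7 passed there.

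Of the hypoxia-inducible factor subunit genes, 4 of 7 listed symbols had 7 regions, and in both comparisons with RD-RD 5 of these rose while 2 fell. Over all regions 64.8% and 59.2% rose in these comparisons and 32.4% and 29% fell. Besides Epas1, the 4 regions inside Arnt2, which encodes a partner of the alpha subunits, rose by 1.39 to 1.89 in HFD-RD and by 1.29 to 1.91 in HFD against RD-RD. The one with the largest change in HFD-RD went from 33.8 normalized counts in RD-RD to 117 in HFD and 116 in HFD-RD. Regions inside Arntl, the clock gene Bmal1 of the same protein family, and Hif3a, whose product can restrain the other alpha subunits, fell with -1.22 ± 0.217 (SE) and -1.13 ± 0.215 (SE) in HFD-RD against RD-RD. None of the 7 passed in HFD-RD against HFD (limma), where 10.2% of all regions were higher and 12.8% lower, log2 changes ran from -0.43 to 0.21 and the Epas1 region lay at 0.15. The median of the list was 1.76, 1.59 and 0.00 in the 3 comparisons in the order above, beside 1.03, 0.75 and -0.05 for all regions.

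The oxygen sensor and regulator list had 4 regions at 3 of 16 genes. Downstream of Egln3, which encodes the prolyl hydroxylase PHD3 and is itself induced by hypoxia, a region averaged 57.2 normalized counts in RD-RD, 74.2 in HFD and 139 in HFD-RD. It rose by 1.25 ± 0.269 (SE) in HFD-RD against RD-RD and by 0.89 ± 0.245 (SE) against HFD, while the change of 0.35 ± 0.245 (SE) in HFD against RD-RD did not pass. Cited2, which encodes a competitor of hypoxia-inducible factors for their coactivators, had 1 region that rose by 1.11 ± 0.200 (SE) and 1 that fell, with -1.10 ± 0.283 (SE), in HFD-RD against RD-RD. Os9, which encodes a lectin of the endoplasmic reticulum, rose by 1.02 ± 0.196 (SE). Counts for the 4 regions were 3 higher and 1 lower in HFD-RD against RD-RD, 2 higher, 1 lower and 1 not passing in HFD against RD-RD, and 1 higher and 3 not passing in HFD-RD against HFD, with medians of 1.06, 0.46 and 0.27. The shares of all regions called higher were 64.8%, 59.2% and 10.2%, and those called lower 32.4%, 29% and 12.8%. The 1 call in HFD-RD against HFD was lost without HFD-RD replicate 1, and 1 of the 4 was called higher with the replicate block.

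Hypoxia target genes had 17 regions at 13 of 51 listed symbols. Compared with RD-RD, HFD-RD had 15 of them higher, 1 lower and 1 that did not pass, with a median of 1.17 beside 1.03 for all regions, of which 64.8% were higher and 32.4% lower. Without HFD-RD replicate 1 the count was 12 higher, 1 lower and 4 not passing. The largest changes were at Kdm4b, a histone demethylase gene, with 2.69 ± 0.402 (SE), at Pgam1, a glycolysis enzyme gene, with 2.44 ± 0.218 (SE), and at Pfkfb4, which encodes a regulator of glycolytic flux, with 2.25 ± 0.205 (SE). Slc2a3, a glucose transporter gene, was the 1 that fell, with -1.56 ± 0.416 (SE). HFD compared with RD-RD had 11 higher, 1 lower and 5 that did not pass, a median of 0.86 beside 0.75, where 59.2% of all regions were higher and 29% lower. Kdm4b led with 2.89 ± 0.367 (SE), followed by Bnip3l, a mitophagy receptor gene, with 1.55 ± 0.193 (SE) and Aldoa, a glycolysis enzyme gene, with 1.36 ± 0.183 (SE).

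In HFD-RD against HFD, 6 of these 17 target regions were higher, 0 lower and 11 not past the threshold, a median of 0.45 beside -0.05 for all regions, of which 10.2% were higher and 12.8% lower. Without HFD-RD replicate 1 this became 3 higher and 0 lower, beside 33 higher and 119 lower of all regions (603 and 757 as reported). With the replicate block it was 4 higher and 1 lower, beside 180 and 241 of all regions. The Pgam1 region inside the gene averaged 82.1 normalized counts in HFD and 244 in HFD-RD, a rise of 1.57 ± 0.199 (SE). Hmox1, the heme oxygenase gene, rose by 1.37 ± 0.200 (SE), after a change of -1.25 ± 0.200 (SE) in HFD against RD-RD. Bhlhe41, a gene of a transcriptional repressor, had 1 region that rose by 1.11 ± 0.179 (SE) and 1 with 0.23 ± 0.182 (SE) that did not pass. This Pgam1 region and those of Pfkfb4 and of Lox, the lysyl oxidase gene, were called higher in all 3 comparisons, as the Vegfa region was, with 1.57, 0.98 and 0.75 in this one. The lists were drawn up with earlier results of these data known and their counts are descriptions.

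Other angiogenic ligands and receptors had 27 regions at 14 of 30 genes. Against RD-RD, 17 were higher in HFD-RD, 9 lower and 1 did not pass, a median of 1.08, beside 64.8% higher and 32.4% lower over all regions. Angpt2, which encodes the vessel-destabilizing ligand angiopoietin 2, had the largest increase with 2.60 ± 0.310 (SE), and Efnb2, an ephrin gene of arterial endothelium, and Mmp2, a matrix protease gene, the largest decreases with -2.54 ± 0.242 (SE) and -1.90 ± 0.191 (SE). In HFD 16 were higher than in RD-RD, 8 lower and 3 did not pass, a median of 0.71, beside 59.2% and 29%. Between HFD-RD and HFD 3 were higher, 4 lower and 20 not past the threshold, a median of 0.10, beside 10.2% and 12.8%, led by Igf1, a growth factor gene, with -1.26 ± 0.330 (SE) and Sema4d, a semaphorin gene, with 1.10 ± 0.340 (SE). Without HFD-RD replicate 1, 0 of these 27 passed in that comparison (limma), and with the replicate block 0 were higher and 1 lower.

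**Figure D5:**
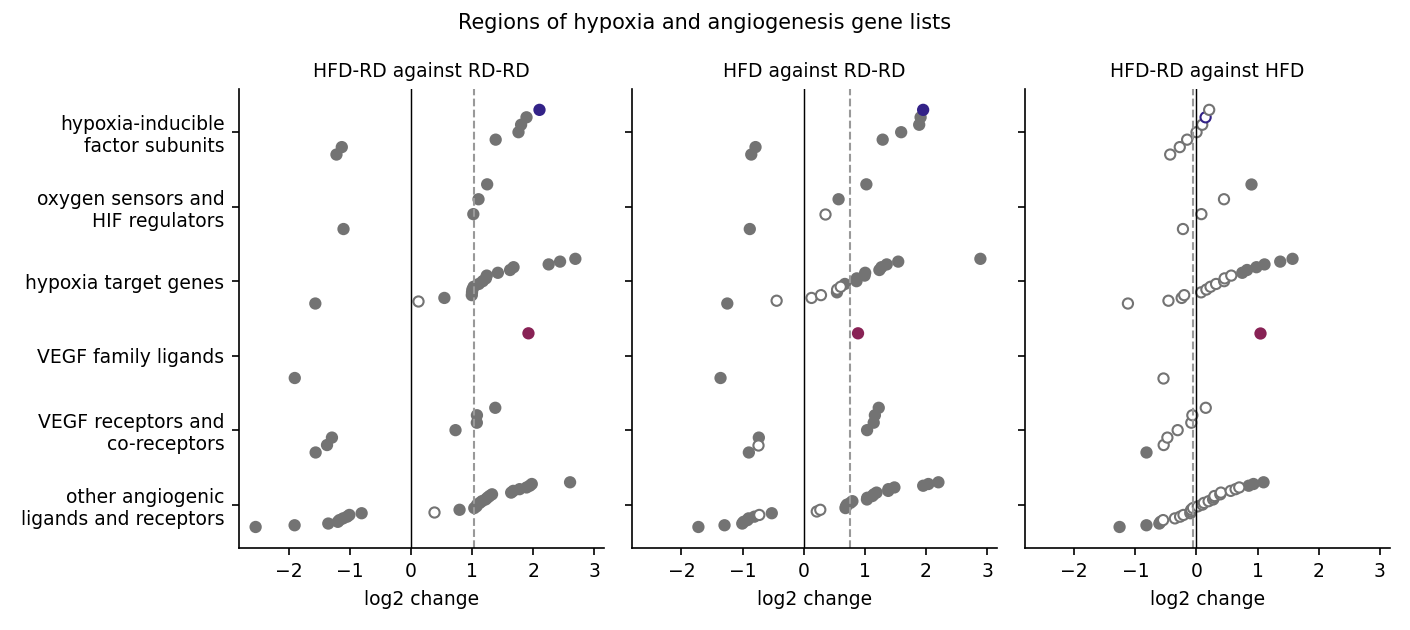
log2 change of every deposited region of the 6 gene lists, by comparison. Filled points passed limma's test and open points did not, Vegfa is purple and Epas1 dark blue, and dashed lines are medians of all deposited regions. Epas1 has the largest value of its list in HFD-RD and HFD against RD-RD, and Vegfa and Vegfc stand on opposite sides of 0.

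Vegfa and Epas1 are also used by vascular and stromal cells, so markers of other cells are given beside their changes. Endothelial markers had 12 regions at 9 of 17 genes, with 7 higher and 5 lower in HFD-RD than in RD-RD, 6 higher, 5 lower and 1 not passing in HFD against RD-RD, and 1 higher, 2 lower and 9 not passing in HFD-RD against HFD. Over all regions 64.8%, 59.2% and 10.2% were higher and 32.4%, 29% and 12.8% lower, in that order. Without HFD-RD replicate 1 the last count was 0 higher and 1 lower. Their summed normalized counts were 1958 to 2033 in RD-RD, 2213 to 2348 in HFD and 2389 to 2442 in HFD-RD. These sums did not overlap and stood in the order RD-RD, HFD, HFD-RD, as the Vegfa region did. The Vegfa region went further, from a mean of 112 in RD-RD to 424 in HFD-RD. No sums over all regions are given beside the marker sums, so their order is not read as a trait of the markers. They weigh regions by their level, and not every region followed that course. Vwf, with the highest counts of the 12 in HFD and HFD-RD, averaged 374, 736 and 796 in that order. Cdh5, the VE-cadherin gene, averaged 379, 131 and 64.2. In HFD-RD against RD-RD, the 7 rises included 1 Kdr region with 1.38 ± 0.208 (SE). Esam, an endothelial adhesion gene, rose by 1.33 ± 0.206 (SE) and Pecam1, the CD31 gene, by 1.26 ± 0.228 (SE). The 5 that fell were Cdh5 (-2.55 ± 0.227, SE), Erg (-1.13), Robo4 (-0.63) and 2 other Kdr regions (-1.56 and -1.37). Pericyte and smooth muscle markers had 3 regions at 2 of 8 genes, all higher in both comparisons with RD-RD, in which 64.8% and 59.2% of all regions were higher. Their sums were 164 to 182, 615 to 896 and 520 to 652 in the same order of groups, as the Epas1 region was lowest in RD-RD. Of these, Cspg4 had the largest change, 2.37 ± 0.273 (SE), in HFD against RD-RD. The single fibroblast region, at Dpp4, summed to 1198 to 1313, 522 to 680 and 608 to 722. Both T and B cell regions together summed to 229 to 245, 347 to 402 and 274 to 302, and 0 regions were assigned to the 5 adipocyte markers. The part of other cells in the changes at Vegfa and Epas1 was not tested, and in sorted bulk nuclei a change in the mix of cells and a change of accessibility per cell cannot be told apart.

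Regions with the most similar course were found by the root mean square difference of centred log2 levels over the 7 libraries. For Vegfa these were a region 7408 bp upstream of Cd93, which encodes a lectin-like receptor of myeloid and endothelial cells, with a difference of 0.082 (Pearson's r = 0.996), and regions at Txn2 (0.124) and Zc3h6 (0.125). The Cd93 region averaged 38.5 normalized counts in RD-RD, 74.9 in HFD and 159 in HFD-RD. For Epas1 they were at Mylk2, a myosin kinase gene (0.117, r = 0.993), Lrp2, an endocytic receptor gene (0.127), and Mir23b (0.192). The Mylk2 region averaged 37.2, 148 and 140 normalized counts. Vegfa and Epas1 differed from each other by 0.688 (r = 0.708), and 3567 other regions were closer to Vegfa than the Epas1 region was. Such likeness over 7 libraries in 3 groups is a description, as the points share libraries and group means.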

How the data were processed

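The 7 deposited tables hold regions the authors selected. Picard, deepTools, MACS2 2.0.10, DESeq2 and the build GRCm38 are named in the submitters' processing notes, with no roles; for the aligner, "not given in the sources used here" applies. The deposited signal is coverage as reads divided by 1 size factor per library: all values (100%) were whole multiples of 1 step within a relative tolerance of 1e-06. Read numbers were inferred from this step and are estimates; a second check on low values did not accept them, so no count test was run. The authors also deposited a log2 fold change, its standard error, a score (Wald statistic), a p-value and an adjusted p-value, for 1 comparison per table, identified here by matching group means.

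limma 3.58.1 (R 4.3.3) was fitted on log2(normalized count + 1), with all 7 libraries in 1 fit of 3 groups and Benjamini–Hochberg adjustment over 5898 regions at 0.05; the minimum mean of 10 normalized counts removed none. Since the authors selected the regions on these libraries, the tests are not independent evidence, and log2(value + 1) understates changes of low regions. The fit was tested on simulated data in which few regions changed and none were selected. The data differ in both, so that test does not bear on the calls here. Members and lists were chosen with earlier results of these data known, and the test of Vegfa minus Epas1 after their values were seen. Genes named are, per list and comparison, up to 3 with the largest called change, and the 3 nearest in course; a few more were named after their values were seen. Alternatives were pseudocounts of 0.5 and 5, other minimums and scalings, a 2-group fit, a replicate block, robust moderation and leaving out each library.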

Additional observations from a re-analysis of the deposited data

How the results depend on the processing

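Over 17 alternative settings, 98 of 102 recomputed log2 changes of the 2 regions kept direction and side of the threshold. This count includes settings that could not move a change, such as no minimum or leaving out a library of the group not compared. With equal totals per library the Epas1 change in HFD-RD against HFD was -0.060, and it passed under no setting. In that comparison the Vegfa change was 0.95 with the replicate block (adjusted p = 0.0554) and 0.89 to 1.17 with each library left out, failing only without HFD-RD replicate 1. The median-of-ratios rescaling, added after seeing the data, put the Vegfa change in HFD against RD-RD at 0.19; by construction it pulls a median of mostly opening regions towards 0. It gave 2859 called regions in HFD-RD against RD-RD (5731 as reported) and 3140 in HFD against RD-RD (5200 as reported). In HFD-RD against HFD 1360 regions were called as reported, 421 with the replicate block and 152 to 1580 with single libraries left out (152 without HFD-RD replicate 1, 494, 903 and 718 without HFD replicates 1, 2 and 3). Removing libraries also leaves fewer to test with; the cause was not tested further. Of the calls in HFD-RD against HFD 44.3% were higher as reported, 18.5% with equal totals, 29% without the largest region and 29.6% under median-of-ratios, and in HFD-RD against RD-RD 66.7% as reported and 29.9% under median-of-ratios, in HFD against RD-RD 67.1% and 34.7%. Equal totals moved the median of all regions by -0.209 in HFD-RD against HFD. Same-numbered libraries did not deviate together (correlations of deviations -0.0716 to 0.0628), so the numbers were not taken as pairs; the block leaves 2 residual degrees of freedom and gives HFD replicate 3 no weight in it. edgeR, DESeq2 and TMM scaling of the reads were not run.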
